A study of Mus musculus with 11 samples.

Results

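Proteasome genes were examined in single 8-cell mouse embryos. They were taken as all protein-coding genes whose symbol opens with Psm, a letter from a to g, and a digit, which gave 50 of the 54146 genes in the deposited tables. Of these, 49 encode a part of the proteasome, a form of such a part in other tissues, or a factor that helps to build or regulate it. The last, *Psmc3ip*, shares only the name pattern and encodes a cofactor of meiotic recombination. All 11 embryos were C57BL/6, collected from the oviduct on embryonic day 2.5 (E2.5) after natural mating of *Prdm10* Δ/+ mice to each other, so every mother carried the deletion on one allele. The 6 control embryos were labelled *Prdm10* WT/HET (+/+ or Δ/+, which the labels do not divide), and the 5 mutant embryos *Prdm10* KO (Δ/Δ). The deleted allele lacks exon 5 and was passed on through the germline after recombination with a widely expressed ACTB-Cre, and embryos were sorted by detecting that exon in their own cDNA. Batch 1 (3 controls, 2 mutants) was amplified with 16 PCR cycles and batch 2 (3 controls, 3 mutants) with 13, and the batches were also collected apart, so cycle number and collection cannot be told apart. Each library is 1 embryo.

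The proteasome is the main protease for proteins tagged with ubiquitin. Its core particle is a barrel of stacked rings, in which the outer rings are built from the alpha subunits (*Psma*) and the inner rings from the beta subunits (*Psmb*). The beta subunits encoded by *Psmb5*, *Psmb6* and *Psmb7* carry the cutting sites, and in immune cells, or after interferon, they can be replaced by the products of *Psmb8*, *Psmb9* and *Psmb10*. A regulatory particle caps the core: its base unfolds substrates with ATPases (*Psmc*) and its lid removes the ubiquitin, most other parts of both being *Psmd* genes. Alternative caps (*Psme*), an inhibitor (*Psmf1*) and assembly chaperones (*Psmg*, *Psmd5*, *Psmd9*, *Psmd10*) complete the family. Early embryos use the proteasome to clear proteins stored in the egg while they switch to products of their own genome.

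PRDM10 is a zinc-finger transcription factor, and *Psma7* and *Psmc3* are the 2 members at binding sites the study lists for it in mouse embryonic stem cells. The study's probes for PRDM10 binding are shown because they define the letters searched here, with the 8 bases changed in the mutated probe in capitals.
WT probe: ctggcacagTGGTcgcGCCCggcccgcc
MUT probe: ctggcacagCAACcgcATTTggcccgcc
The letters TGGT, 5 bases of any kind and CC were taken from the changed bases, of which the GC that opens the second run was left free. They were searched on both strands of windows from 250 bases before to 50 after each gene start (RefSeq, GRCm38.p6). Windows were at hand for 42 members. Of these, 6 held the letters (*Psma7*, *Psmc2*, *Psmd12*, *Psmd14*, *Psme2* and *Psmg3*), or 14.3%, against 15.6% of all 27025 genes with a window. No window was used for *Psmc3*, *Psma8*, *Psmb1*, *Psmb2*, *Psmb7*, *Psmd3*, *Psmd7* and *Psmg2*. The 70 bases before the start of *Psma7* follow on the minus strand (chr2:180042465-180042534), with the match at -52 to -42 in capitals. The far end of this stretch, with the TGGT that opens the match, also lies in the first exon of *Ss18l1*, which runs the other way.
Psma7: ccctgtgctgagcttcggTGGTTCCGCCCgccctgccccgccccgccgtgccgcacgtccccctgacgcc
A second set of letters, TGACNNNGC or TGAGNNNGC, belongs to the antioxidant response element, through which the factors NFE2L1 and NFE2L2 raise proteasome genes when proteasome activity is short. It stood in 17 of the 42 windows (40.5%), against 30.8% of all genes with a window and 35.9% of the 7764 with a window that passed the expression filter below. The promoter of *Psmb6*, whose level is described below, is shown on the plus strand (chr11:70525287-70525356) with the match at -9 to -1 in capitals.
Psmb6: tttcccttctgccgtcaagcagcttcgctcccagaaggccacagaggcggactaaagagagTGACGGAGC

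The deposited tables summed to 3534735 to 8265840 expected counts per embryo (estimated counts, in which reads shared by several genes are divided among them). *Prdm10* was at 11.1, 14.96 and 17.6 TPM (the share of all transcripts, on a fixed total and corrected for gene length) in the controls of batch 1 and 5.32 and 8.16 in the mutants, and at 14.2, 16.1 and 24.8 in controls and 4.88, 7.29 and 7.67 in mutants in batch 2. All mutants lay below all controls (exact two-sided permutation test, p = 0.00433). Because the embryos were sorted by exon 5 of this gene in the same cDNA, the test is no independent check of the labels. On counts, the difference was -0.66 (SE 0.26, adjusted p = 0.207) in DESeq2 and did not pass. The embryos expressed the 8-cell markers *Dppa3* (4239.8 to 5987 TPM), *Pou5f1* (34.2 to 486), *Tfap2c* (34.4 to 131) and *Klf17* (31.5 to 233), while *Cdx2* and *Sox2*, which rise at a later stage, were at most 1.3 and 1.85 TPM. The 5 leukocyte markers summed to 0.270 to 3.97 TPM in batch 1 and 13.2 to 133 in batch 2. The 4 oviduct epithelium markers summed to 0.290 to 1.02 and 1.59 to 32.4, the 6 of cumulus and granulosa cells to at most 3.08, and the 3 of erythrocytes to at most 8.23. The first pair of lists did not overlap between the batches, and in both batches controls and mutants held them.

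The constitutive proteasome was expressed at a high level in every embryo. The 50 genes summed to 9764 to 12888 TPM, or 0.976% to 1.29% of all TPM, with 11624 ± 1094 in controls (SD, n = 6) and 11809.8 ± 871 in mutants (SD, n = 5). The 31 members of the constitutive core, base and lid were at 43.2 to 1202 TPM. The core genes were the most abundant, with a mean of 422 to 574 TPM per gene over the 14 genes, against 187 to 313 over the 17 members of the base and lid. In all 11 embryos the core mean was the higher.

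Subunits that occur in equal numbers in the particle did not have equal mRNA levels. In the alpha ring, *Psma6* (786 to 1114 TPM) and *Psma3* (572 to 1202) were highest by median, followed by *Psma7* (455 to 703) and *Psma1* (343 to 617). *Psma5* (262 to 501), *Psma4* (177 to 447) and *Psma2* (234 to 359) were lower, and within an embryo the highest alpha gene was 2.73 to 5.29 times the lowest. The posterior SD of the *Psma3* count was 5.17% of it by median, since part of its reads match elsewhere. The beta ring was more even, with a ratio of 1.84 to 2.40 between its highest and lowest gene. By median over the embryos *Psmb1* was lowest, at 216 to 348 TPM, and *Psmb4* (463 to 685), *Psmb6* (375 to 619), *Psmb2* (390.2 to 631) and *Psmb7* (344 to 631) were highest, their ranges overlapping. *Psmb3* and *Psmb5* lay at 274 to 467 and 306 to 475. The order was not the same in every embryo: in batch 1 *Psmb7* (344 to 409) overlapped *Psmb3* and *Psmb5*, and in batch 2 the range of *Psmb3* (274 to 467) overlapped that of *Psmb1* (258 to 348).

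Among the base ATPases, which form a ring of 6 different subunits, *Psmc5* (303 to 452 TPM) was highest by median and *Psmc3* (84.6 to 173) lowest. *Psmc4* (181 to 318), *Psmc1* (174 to 392), *Psmc2* (189.9 to 289) and *Psmc6* (148 to 289) lay between them. Of the 3 other base genes, *Psmd4*, a ubiquitin receptor, was at 294 to 579 TPM, and the scaffold subunits *Psmd1* and *Psmd2* at 43.2 to 111 and 59.3 to 173. In the lid, *Psmd11* (361 to 744) and *Psmd7* (310.3 to 560.4) were highest. *Psmd14*, the lid enzyme that cuts off ubiquitin, was at 159 to 270.1, close to *Psmd12* (191 to 300.2), *Psmd8* (143 to 348) and *Psmd6* (129 to 382). *Psmd13* and *Psmd3* were lowest by median, at 83.9 to 242 and 47.7 to 251, but in batch 1 both (120.2 to 242 and 107 to 251) overlapped *Psmd14* (197 to 246).

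**Figure D1:**
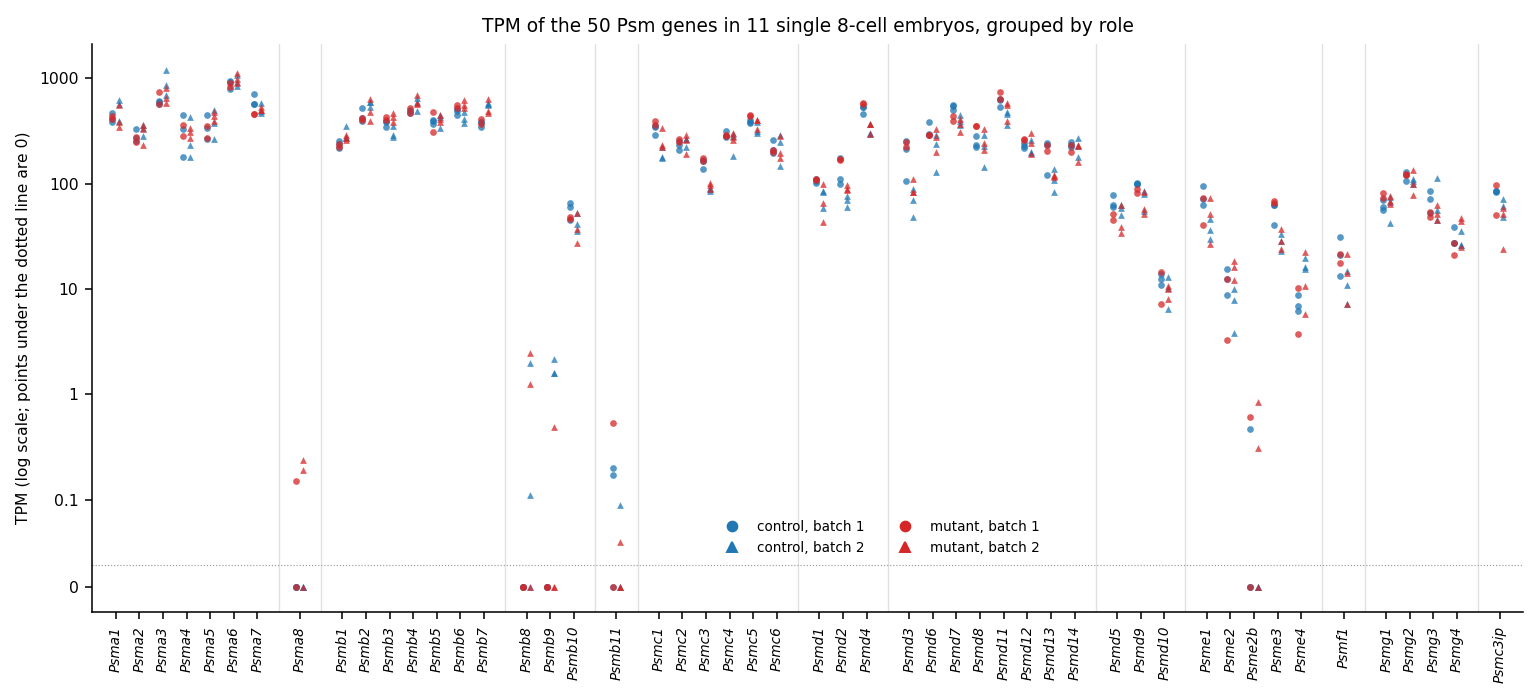
TPM of each of the 50 genes on a log scale, 1 point per embryo, with genes ordered by role along the x axis. Circles are batch 1 and triangles batch 2, blue controls and red mutants, and points under the dotted line are listed at 0. Core, base and lid genes sit at 43.2 to 1202 TPM, while *Psma8*, *Psmb8*, *Psmb9*, *Psmb11* and *Psme2b* stay under 3.

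Of the tissue-restricted catalytic subunits, *Psmb10* was expressed throughout and the others were near 0. *Psmb10*, the inducible counterpart of *Psmb7*, was at 44.7, 60.0 and 65.8 TPM in the controls and 45.9 and 47.9 in the mutants of batch 1, and at 35.1, 41.7 and 52.6 in controls and 27.3, 37.2 and 53.1 in mutants in batch 2. The groups overlapped in both batches, and the log2 fold change was -0.24 (SE 0.24, adjusted p = 0.759) in DESeq2. *Psmb10* made up 10.1 to 16.1% of the summed TPM of *Psmb10* and *Psmb7* in batch 1 and 4.14 to 10.3% in batch 2. *Psmb7* itself was at 344, 386 and 387 TPM in controls and 364 and 409 in mutants of batch 1, and at 559, 563 and 579 in controls and 462, 489.9 and 631 in mutants in batch 2. Every batch 2 embryo was above every batch 1 embryo for *Psmb7*.

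*Psmb8*, the counterpart of *Psmb5*, was listed at 0 in all 5 embryos of batch 1, where 3 counts would have given 0.383 to 0.678 TPM. In batch 2 it was at 0, 0.110 and 2.00 TPM in the controls and 0, 1.25 and 2.49 in the mutants, on at most 17 counts, with both groups holding embryos at 0. *Psmb5* was at 366, 391 and 403 TPM in controls and 306 and 475 in mutants of batch 1, and at 339, 426 and 451 in controls and 383, 409.6 and 451 in mutants in batch 2, so that *Psmb8* reached at most 0.646% of the pair. *Psmb9*, the counterpart of *Psmb6*, was likewise at 0 throughout batch 1 (3 counts would have given 0.511 to 0.903 TPM). Its batch 2 values were 1.58, 1.58 and 2.16 TPM in controls and 0, 0 and 0.490 in mutants, on at most 6 counts, and it reached at most 0.453% of the pair with *Psmb6*. All 3 controls of batch 2 were above the mutants, but neither gene had a mean normalised count above 10, and neither counts among the genes tested. Such limits cover counting error only, since PCR copies of a molecule were counted separately.

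Markers of other cells were also higher in batch 2. In batch 2, the leukocyte sums of control replicates 1, 2 and 3 were 133, 40.5 and 13.2 TPM. Their *Psmb8* was at 0.110, 2.00 and 0, and their *Psmb9* at 1.58, 2.16 and 1.58. Mutant replicates 1, 2 and 3 had sums of 51.7, 64.4 and 16.3. Their *Psmb8* was at 0, 2.49 and 1.25, and their *Psmb9* at 0, 0.490 and 0. *Lyz2*, the lysozyme of macrophages, was at 0, 0, 0, 0 and 0.590 TPM in the embryos of batch 1 and at 9.77, 13.5, 15.7, 37.0, 40.9 and 121 in batch 2. *Cd74*, the invariant chain of antigen-presenting cells, was at most 0.770 TPM in batch 1 and 1.13 to 16.7 in batch 2, and *Ovgp1*, the oviductal glycoprotein, at most 0.810 and 1.45 to 30.1. The leukocyte marker *Ptprc* was at 0 in all batch 1 embryos and at 0, 0, 0, 0.0700, 0.230 and 2.90 in batch 2. Among embryos of batch 2, 3 to 5 of the 5 leukocyte markers were above 0, and 1 to 3 in batch 1. The part of other cells in the *Psmb8* and *Psmb9* values was not tested, and in whole embryos fewer cells of a type and less RNA per cell cannot be told apart. *Psmb10* was at 44.7 to 65.8 TPM in batch 1, where the leukocyte markers were low, and at 27.3 to 53.1 in batch 2.

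**Figure D2:**
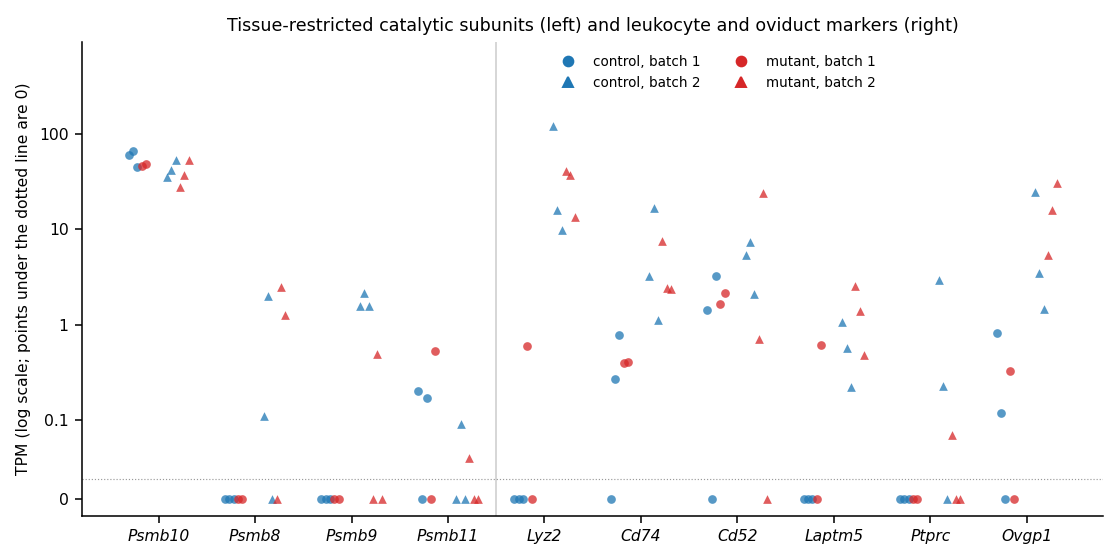
TPM on a log scale of the tissue-restricted beta subunits and of leukocyte markers and the oviduct marker *Ovgp1*, 1 point per embryo, with batch 1 circles to the left and batch 2 triangles to the right of each gene. Points under the dotted line are listed at 0. *Psmb10* is above 27 TPM in every embryo, and *Psmb8*, *Psmb9* and *Lyz2* have values above 1 TPM in batch 2 alone.

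The remaining restricted forms were at the edge of detection. *Psmb11*, the thymus subunit, was at 0, 0.170 and 0.200 TPM in controls and 0 and 0.530 in mutants of batch 1, and at 0, 0 and 0.0900 in controls and 0, 0 and 0.0400 in mutants of batch 2. *Psma8*, which replaces *Psma7* in spermatocytes, was at 0, 0 and 0 TPM in controls and 0 and 0.150 in mutants of batch 1, and at 0, 0 and 0 in controls and 0, 0.190 and 0.240 in mutants of batch 2. *Psmb11* was at 0 in 6 of the 11 embryos and *Psma8* in 8. *Psme2b*, a near copy of *Psme2*, was at most 0.850 TPM, and the median posterior SD was 74.8% of its count, as it shares reads with *Psme2*. For *Psme2* that SD was 3.55%. The 4 pseudogenes named *Psmb5-ps*, *Psmb6-ps*, *Psmb6-ps2* and *Psmb7-ps2* are not protein coding and were not members.

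Alternative caps were far below the core. *Psme1*, one of the paired subunits of the 11S cap, was at 63.1, 71.4 and 95.4 TPM in controls and 40.2 and 72.8 in mutants of batch 1, and at 30.0, 36.0 and 46.2 in controls and 26.9, 51.4 and 72.5 in mutants in batch 2. Its partner *Psme2* was at 8.82, 12.5 and 15.6 in controls and 3.28 and 12.5 in mutants in batch 1, and at 3.78, 7.82 and 9.89 in controls and 12.04, 16.0 and 18.5 in mutants in batch 2. The pair was thus uneven in all 11 embryos, with *Psme1* the higher. *Psme3*, which forms a nuclear cap of its own, was at 40.6, 62.1 and 62.2 TPM in controls and 65.2 and 68.3 in mutants in batch 1 and at 22.7, 28.4 and 32.9 in controls and 23.7, 28.3 and 36.8 in mutants in batch 2, where every embryo was below every embryo of batch 1. *Psme4*, which encodes the PA200 cap, was at 6.20, 6.94 and 8.69 in controls and 3.74 and 10.2 in mutants in batch 1 and at 15.4, 16.0 and 19.5 in controls and 5.78, 10.7 and 22.2 in mutants in batch 2. Its batch 2 controls lay above all batch 1 embryos, while its batch 2 mutants spread across both ranges. *Psmf1*, the inhibitor that binds the ends of the core, was at 13.4, 21.2 and 31.4 TPM in controls and 17.7 and 21.6 in mutants in batch 1 and at 7.16, 10.97 and 14.8 in controls and 7.20, 14.1 and 21.6 in mutants in batch 2, with both groups overlapping.

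Chaperones that build the core (*Psmg1* to *Psmg4*) were at 21.1 to 135 TPM, with *Psmg2* (78.1 to 135) highest and *Psmg4* (21.1 to 47.0) lowest by median. Of the chaperones of the base, *Psmd9* was at 51.3 to 102, *Psmd5* at 34.3 to 78.6 and *Psmd10*, also known as gankyrin, at 6.39 to 14.5 TPM. *Psmc3ip*, the member by name alone, was at 83.1, 85.4 and 85.8 TPM in controls and 50.3 and 97.5 in mutants of batch 1, and at 48.2, 61.5 and 70.7 in controls and 23.9, 51.0 and 58.9 in mutants in batch 2. Reads were not assigned by strand, and its exons share 21.2% of their bases with *Mlx* on the other strand. The same kind of overlap was 25.5% for *Psmd9* with *Gm26745*, 14.7% for *Psmb8* with *Gm20496*, 5.79% for *Psmb9* with *Tap1*, 8.25% for *Psmc3* with *Slc39a13*, 11.8% for *Psmb7* with *Nek6* and 10.1% for *Psmd13* with *Sirt3*.

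Whether proteasome genes depend on *Prdm10* was asked by comparing mutants with controls across all genes, with batch as a term. No proteasome gene passed. Of the 45 members with a mean normalised count above 10, 0 were called by DESeq2 at an adjusted p under 0.05, where 1.46% of the 10448 genes tested were, and 0 by edgeR, where 0.334% of 10489 were. Of the 45, 3 had an unadjusted p under 0.05 in DESeq2 (*Psmb3*, *Psmb6* and *Psmd5*), or 6.67%, against 11.9% of all genes tested. The smallest adjusted p of a member was 0.268 in DESeq2 and 0.436 in edgeR. The log2 fold changes ranged from -0.43 to 0.52, with 27 above 0 and 18 below, a median of 0.03 and a median SE of 0.17. Over all genes tested the median was -0.00124. For 44 of the 45 members the 95% interval of the log2 fold change lay inside -1 to 1, that is, a change beyond 1 log2 unit either way lay outside it, and for 30 it lay inside a fold of 1.5 either way. *Psme2* was the exception to the first, with an interval of -0.49 to 1.52. These intervals rest on the SE of DESeq2, which called 1.46% of genes where edgeR called 0.334%. They may therefore be too narrow.

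**Figure D3:**
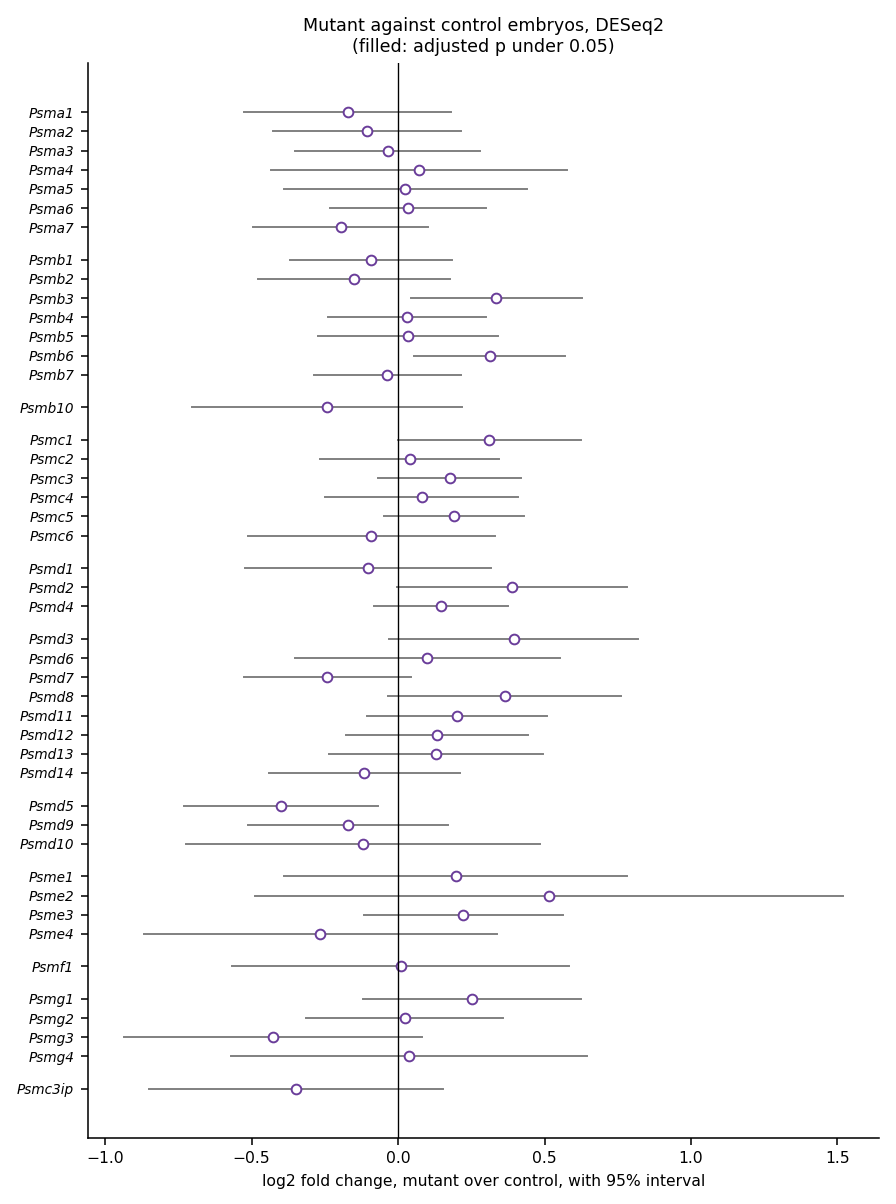
DESeq2 log2 fold change of mutants over controls for the 45 members tested, ordered by role from top to bottom, with 95% intervals as bars. Open points are members that did not pass an adjusted p of 0.05, which is all 45. The point estimates run from -0.43 (*Psmg3*) to 0.52 (*Psme2*).

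*Psma7* (chromosome 2 from 180036374 to 180042433, GRCm38), an alpha subunit with a listed PRDM10 site, was at 567, 570.1 and 703 TPM in the controls of batch 1 and 455 and 462 in the mutants. Both mutants were below all 3 controls. In batch 2 the values were 462, 492 and 578 in controls and 495, 499 and 532 in mutants, which overlapped. The DESeq2 log2 fold change was -0.20 (SE 0.15, adjusted p = 0.663), with an interval of -0.49 to 0.10. It was -0.44 (SE 0.25) within batch 1 and -0.00407 (SE 0.22) within batch 2. The difference between the batches was 0.44 (SE 0.29, unadjusted p = 0.137, adjusted p = 0.999). Over all embryos, TPM was 562 ± 83.5 in controls (SD, n = 6) and 489 ± 31.3 in mutants (SD, n = 5), with p = 0.0736 in an exact two-sided permutation test that leaves batch aside.

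*Psmc3* (chromosome 2 from 91054009 to 91066369), a base ATPase and the other gene with a listed site, was at 138, 163 and 165 TPM in controls and 165 and 173 in mutants of batch 1, and at 84.6, 88.0 and 91.2 in controls and 88.1, 96.2 and 101 in mutants in batch 2. TPM of the groups overlapped in both batches. In normalised counts, which are not corrected for length, all mutants lay above all controls of their batch in both, and *Psmc3* was the single member of the 45 with that pattern, against 1.33% of all genes tested. Its log2 fold change was 0.18 (SE 0.12, adjusted p = 0.615) with an interval of -0.07 to 0.42, and 0.12 and 0.22 within batches 1 and 2. Over both batches, TPM was 122 ± 38.2 in controls (SD, n = 6) and 125 ± 41.0 in mutants (SD, n = 5), a spread that includes the gap between the batches. Reads of *Slc39a13*, which overlaps its end, cannot be told apart without strand.

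In TPM, 2 of the 45 members had all mutants above all controls in both batches, *Psmb3* and *Psmb6*, against 0.995% of all genes tested. *Psmb6*, which carries the caspase-like site, was at 451, 488 and 506 TPM in controls and 526.3 and 552 in mutants of batch 1. In batch 2 it was at 375, 413 and 475 in controls and 522, 552 and 619 in mutants. DESeq2 gave a log2 fold change of 0.31 (SE 0.13, adjusted p = 0.268) with an interval of 0.06 to 0.57. *Psmb3*, a beta subunit without a cutting site, was at 345, 385 and 388 in controls and 401 and 431 in mutants in batch 1 and at 274, 290.2 and 355 in controls and 382, 431 and 467 in mutants in batch 2, with a log2 fold change of 0.34 (SE 0.15, adjusted p = 0.311). In normalised counts both genes kept the separation in batch 2 and overlapped in batch 1. Neither passed the adjusted threshold.

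The lowest log2 fold changes were those of *Psmg3*, *Psmd5* and *Psmc3ip*. *Psmd5*, a chaperone of the base, was at 60.5, 63.0 and 78.6 TPM in controls and 45.5 and 51.8 in mutants of batch 1, where both mutants were below all controls. It was at 49.8, 58.5 and 62.7 in controls and 34.3, 38.9 and 63.0 in mutants in batch 2, where the groups overlapped, and its log2 fold change was -0.40 (SE 0.17, adjusted p = 0.272). *Psmg3* was at 52.8, 71.2 and 85.2 in controls and 48.4 and 53.8 in mutants in batch 1 and at 44.6, 56.0 and 112 in controls and 44.9, 50.9 and 63.1 in mutants in batch 2, with -0.43 (SE 0.26, adjusted p = 0.533). For *Psmc3ip* the estimate was -0.35 (SE 0.26, adjusted p = 0.629). None of these passed. The place of *Psmg3* rests on control replicate 1, at 112 TPM, without which its log2 fold change was -0.15. With single embryos left out, the log2 fold change of *Psmc3ip* ran from -0.56 to -0.19.

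At the other end were *Psme2*, *Psmd3* and *Psmd2*. *Psmd3*, a lid subunit, was at 107, 212 and 251 TPM in controls and 220.2 and 248 in mutants of batch 1 and at 47.7, 69.2 and 87.8 in controls and 82.2, 83.2 and 111 in mutants in batch 2, with a log2 fold change of 0.39 (SE 0.22, adjusted p = 0.477). *Psmd2*, a base scaffold, was at 98.9, 110.1 and 173 in controls and 169 and 172 in mutants in batch 1. In batch 2 it was at 59.3, 70.5 and 75.6 in controls and 87.5, 88.6 and 97.0 in mutants, where all mutants were above all controls, and its log2 fold change was 0.39 (SE 0.20, adjusted p = 0.425). The groups of both genes overlapped in batch 1. *Psme2* had 0.52 (SE 0.51, adjusted p = 0.769), with 0.24 to 0.94 when single embryos were left out. The log2 fold changes of the other caps and the inhibitor were 0.20 (SE 0.30, adjusted p = 0.881) for *Psme1*, 0.22 (SE 0.17, adjusted p = 0.663) for *Psme3*, -0.27 (SE 0.31, adjusted p = 0.815) for *Psme4* and 0.01 (SE 0.29, adjusted p = 0.997) for *Psmf1*.

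By role, the log2 fold changes of the 7 alpha genes ran from -0.20 to 0.07, those of the 7 beta genes from -0.15 to 0.34, and those of the 6 ATPases from -0.09 to 0.31. The lid ran from -0.24 (*Psmd7*) to 0.39 (*Psmd3*), the 3 base chaperones from -0.40 to -0.12 and the 4 core chaperones from -0.43 to 0.25. Every role held 0 calls.

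Within batch 1, TPM of both mutants lay above all 3 controls for 9 of the 45 members (*Psmb3*, *Psmb6*, *Psmc1*, *Psmc5*, *Psmd4*, *Psmd8*, *Psmd12*, *Psme3* and *Psmg1*) and below for 5 (*Psma7*, *Psmd5*, *Psmd7*, *Psmd9* and *Psmg4*), or 20% and 11.1%. Over all genes tested the shares were 12% and 11.6%. Within batch 2 the 3 mutants lay above all controls for 4 (*Psmb3*, *Psmb6*, *Psmd2* and *Psme2*), or 8.89%, and below for 0, against 5.84% and 6.69%. A test of the batch by group interaction called 0 of the 45 members in DESeq2 (0.0668% of 10472 genes) and 0 in edgeR (0% of 10489). At an unadjusted p under 0.05 the DESeq2 interaction also held 0 members, against 4.3% of genes. The member with the smallest interaction p was *Psme2* (log2 difference 1.87, SE 0.98, unadjusted p = 0.0556, adjusted p = 0.999), followed by *Psme1* (0.90, SE 0.58, unadjusted p = 0.117) and *Psma7*. With 2 and 3 mutants per batch, the SE of an interaction was large, at a median of 0.36 over the members.

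Between the batches, the core members that passed and the base and lid members that passed went in opposite directions. In DESeq2, 15 of the 45 members passed between batch 2 and batch 1, or 33.3%, close to the 29.7% of all genes tested. Higher in batch 2 were 8 (14.7% of all genes tested) and lower 7 (15%). All 7 core members that passed were higher in batch 2, and all 6 base and lid members that passed were lower. Of the base and lid genes whose symbols do not match the pattern, *Sem1* of the lid was higher (0.69, SE 0.15, adjusted p = 5.78e-05) and *Adrm1* of the base lower (-0.51, SE 0.13, adjusted p = 0.000598). In edgeR, 14 of the 15 passed, *Psmc1* being the exception (adjusted p = 0.0617), where 22.7% of genes did. Both genotypes are in both batches, and batch and genotype were fitted together.

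Of the core, *Psmb7*, which carries the trypsin-like site, had the largest difference, 0.76 (SE 0.13, adjusted p = 1.31e-07) on the log2 scale from batch 1 to batch 2 (DESeq2). *Psma3* (0.65, SE 0.16, adjusted p = 0.000507), *Psmb2* (0.55, SE 0.17, adjusted p = 0.00610), *Psmb1* (0.53, SE 0.14, adjusted p = 0.00134), *Psma2* (0.45, SE 0.16, adjusted p = 0.0222), *Psmb4* (0.39, SE 0.14, adjusted p = 0.0214) and *Psma6* (0.37, SE 0.14, adjusted p = 0.0275) were also higher in batch 2. The other 7 core genes had estimates from 0.07 (*Psmb3*) to 0.48 (*Psma5*) and did not pass. The median was 0.41 over the 7 alpha genes and 0.39 over the 7 beta genes, beside 0.00175 over all genes.

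Of the regulatory particle, *Psmd3* had a batch difference of -1.18 (SE 0.22, adjusted p = 1.33e-06) and *Psmd2* of -0.95 (SE 0.20, adjusted p = 3.48e-05), on the log2 scale. *Psmd13* (-0.61, SE 0.19, adjusted p = 0.00600) of the lid, *Psmd4* (-0.44, SE 0.12, adjusted p = 0.00156) of the base, and the ATPases *Psmc3* (-0.44, SE 0.12, adjusted p = 0.00305) and *Psmc1* (-0.43, SE 0.16, adjusted p = 0.0301) were lower as well. The 11 other base and lid genes lay between -0.37 (*Psmd1*) and 0.26 (*Psmc2*). Among the caps, *Psme4* had 1.57 (SE 0.31, adjusted p = 7.85e-06) and *Psme3* -0.85 (SE 0.17, adjusted p = 1.6e-05). None of the 4 core chaperones and 3 base chaperones passed. Of the 15 calls, 4 did not hold in every omission of an embryo. *Psma2*, *Psma6*, *Psmb4* and *Psmc1* passed in only 4, 4, 5 and 3 of the 11 omissions, with adjusted p up to 0.117 (*Psma6*), and the other 11 passed in all 11 omissions.

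In single embryos, *Psma3* was at 572, 574, 599, 612 and 736 TPM in batch 1 and at 577, 653, 693, 806, 854 and 1202 in batch 2. *Psmb1* was at 216, 222, 235, 238 and 252 and at 258, 268, 273, 276, 292 and 348, and *Psmb2* at 390.2, 404, 414, 420.3 and 520.5 and at 396, 482, 528, 589, 589 and 631. The batches did not overlap for *Psmb1*, and they did for *Psma3* and *Psmb2*. *Psma2* was at 249.6, 256, 269, 274 and 326 TPM in batch 1 and at 234, 285, 331, 334, 355 and 359 in batch 2, *Psma6* at 786, 816, 905, 920.3 and 935 and at 838, 905, 924, 989.5, 1064 and 1114, and *Psmb4* at 463, 464, 492, 497 and 515 and at 484, 573, 579, 587, 654 and 685. These 3 overlapped between the batches. On the regulatory side, *Psmd4* was at 454, 529, 529, 564 and 579 TPM in batch 1 and at 294, 296, 304, 365, 369.9 and 371 in batch 2, *Psmd13* at 120.2, 204, 231, 231 and 242 and at 83.9, 108, 114, 117, 121 and 138, and *Psmc1* at 291, 344, 348, 359 and 392 and at 174, 178, 220.4, 224, 232 and 339. For *Psmd4* every batch 2 embryo lay below every batch 1 embryo, while the batches overlapped for *Psmd13* and *Psmc1*.

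The ratio of mean TPM per core gene to mean TPM per base or lid gene, which no scaling of a library can change, was 1.48, 1.49 and 1.66 in the controls and 1.35 and 1.504 in the mutants of batch 1. In batch 2 it was 2.28, 2.30 and 2.32 in the controls and 2.00, 2.08 and 2.24 in the mutants. Every embryo of batch 2 was above every embryo of batch 1. The genotypes overlapped in batch 1, and in batch 2 every mutant was below every control. No test was run on this ratio. The core mean was 443 ± 28.5 TPM in batch 1 (SD, n = 5) and 500.2 ± 55.5 in batch 2 (SD, n = 6), which overlap, and the regulatory mean was 296 ± 12.3 and 228 ± 29.6, which do not. On the TPM scale the median over all genes was -0.20 between the batches. There limma called 8 of the members, 1 higher (*Psmb7*) and 7 lower, where 21.7% of genes passed, 519 higher and 1759 lower of 10489. The 6 base and lid calls were among the 7. The 6 other core genes called in DESeq2 had log2 differences of 0.15 to 0.35 there and did not pass, and *Psme4* had 0.96 (adjusted p = 0.0516).

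**Figure D4:**
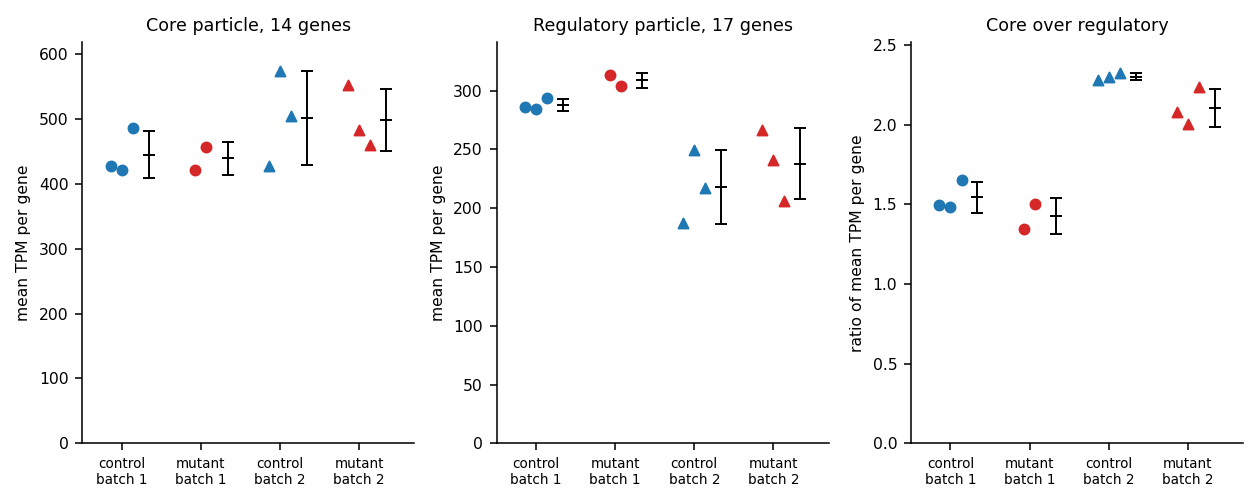
Mean TPM per gene of the 14 core genes (left) and the 17 base and lid genes (middle), and their ratio (right), 1 point per embryo by genotype and batch, with the mean and SD of each set of embryos as black bars. The ratio lies at 1.35 to 1.66 in batch 1 and 2.00 to 2.32 in batch 2, where the 3 mutants lie below the 3 controls.

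**Figure D5:**
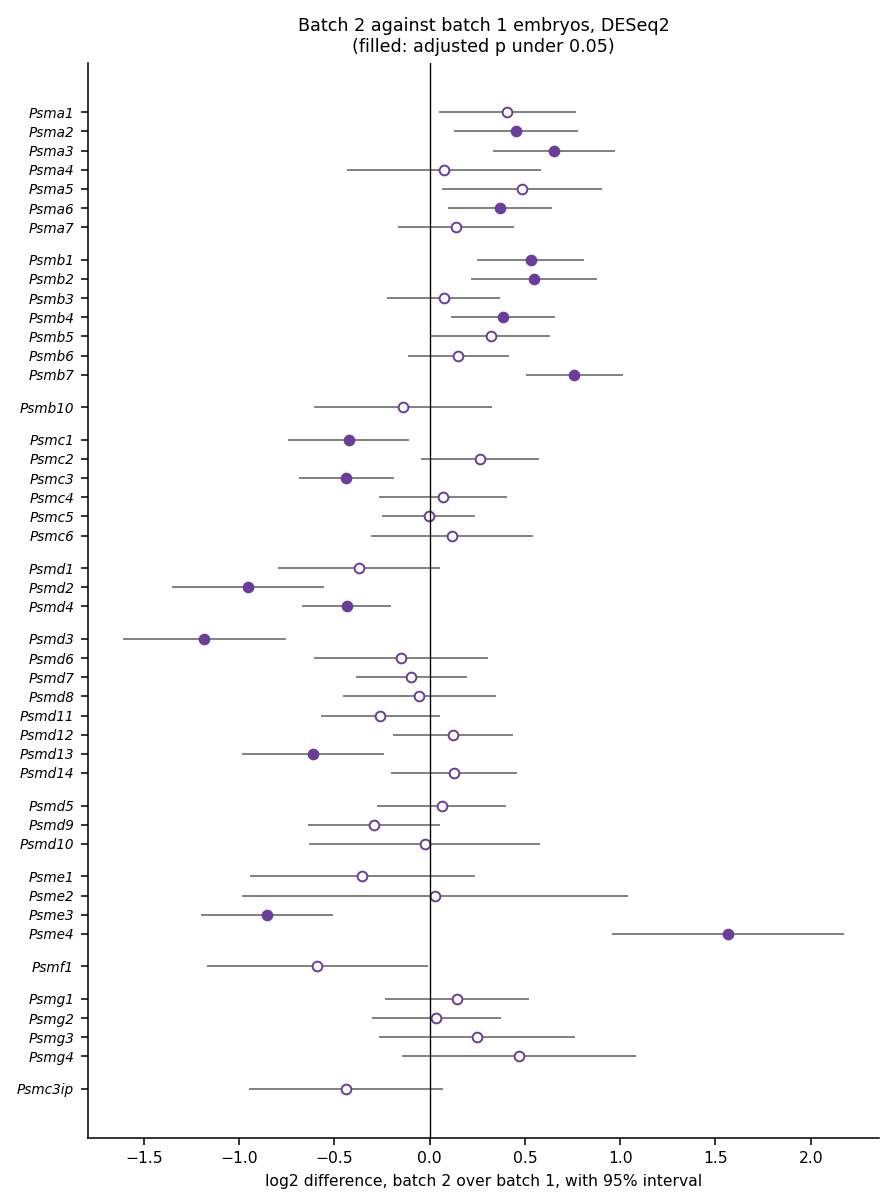
DESeq2 log2 difference of batch 2 over batch 1 for the 45 members tested, ordered by role, with 95% intervals as bars and filled points where the adjusted p was under 0.05. The 7 filled core points are to the right of 0 and the 6 filled base and lid points to the left. *Psme4* lies farthest right, at 1.57, and *Psmd3* farthest left, at -1.18.

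The batch difference varied between classes of transcript length, without a steady trend. Core genes had a median effective length of 904 bases (624.9 to 1776) and base and lid genes of 1310.3 (1034 to 2959), while *Psme4* had 4781. Over all genes tested, the median log2 difference between the batches was 0.47 in genes up to 500 bases, 0.22 from 500 to 1000, -0.11 from 1000 to 1500, -0.25 from 1500 to 2000, -0.25 from 2000 to 3000 and 0.28 above 3000. The 13 members of 500 to 1000 bases had a median of 0.15 and the 18 of 1000 to 1500 bases of -0.07, both on the same side of 0 as all genes of their class. That also held for the 2 members up to 500 bases (0.17), the 4 of 2000 to 3000 bases (-0.72) and *Psme4* above 3000 (1.57). The 7 members of 1500 to 2000 bases, among them *Psma2* and *Psmb1*, had a median of 0.12, on the other side. Genes of the embryo's own stage also differed between the batches in DESeq2, with log2 differences of -1.53 (SE 0.31, adjusted p = 1.08e-05) for *Pou5f1*, -0.94 (SE 0.16, adjusted p = 8.29e-08) for *Tfap2c*, -0.87 (SE 0.29, adjusted p = 0.0128) for *Klf17*, -0.99 (SE 0.38, adjusted p = 0.0341) for *Nanog* and 0.43 (SE 0.13, adjusted p = 0.00482) for *Dppa3*. Of these, *Nanog* did not pass between the batches in edgeR (adjusted p = 0.0734), and the others did. Between genotypes, *Klf17* was lower in mutants in DESeq2 (-1.10, SE 0.29, adjusted p = 0.0197) but did not pass in edgeR (adjusted p = 0.188). Its TPM was lower in both mutants than in all controls of batch 1, and the groups overlapped in batch 2. In DESeq2, *Pou5f1* (0.90, SE 0.31, adjusted p = 0.119) and *Nanog* (-1.05, SE 0.38, adjusted p = 0.160) did not pass between genotypes. Of the 3 other markers listed for the stage, *Zp3* did not pass between the batches, and *Cdx2* and *Sox2* were below the filter on the mean normalised count. The part of length, stage, amplification or collection in the batch difference, and of stage in the genotype comparison, was not tested.

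The wider ubiquitin-proteasome pathway was read from a list of 34 genes, of which 29 had a mean normalised count above 10. Between genotypes, 0 passed in DESeq2 or edgeR, and at an unadjusted p under 0.05 in DESeq2 there were 3 higher in mutants and 1 lower. Over all genes tested these shares were 1.46% in DESeq2, 0.334% in edgeR and 11.9% at the unadjusted p. The smallest p belonged to *Rad23b*, a shuttle that brings ubiquitinated proteins to the proteasome, which was at 18.3, 28.3 and 39.8 TPM in controls and 41.7 and 46.0 in mutants of batch 1, and at 25.7, 26.5 and 34.4 in controls and 33.2, 35.4 and 38.1 in mutants in batch 2, with a log2 fold change of 0.52 (SE 0.19, adjusted p = 0.172). Both mutants were above all controls in batch 1, and the groups overlapped in batch 2. *Ecpas*, a proteasome adaptor, had 0.47 (SE 0.19, adjusted p = 0.237), *Adrm1*, the ubiquitin receptor of the base, 0.26 (SE 0.13, adjusted p = 0.400), and *Nploc4*, a cofactor of the unfoldase VCP, -0.45 (SE 0.19, adjusted p = 0.268). *Uba1*, the main ubiquitin-activating enzyme and the 1 pathway gene with a listed PRDM10 site, had 0.38 (SE 0.27, adjusted p = 0.611). *Nfe2l1*, which raises proteasome genes when activity is short, was at 6.10 to 16.6 TPM and had 0.11 (SE 0.30, adjusted p = 0.941).

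Between the batches, 12 of the 29 pathway genes passed in DESeq2, 6 higher and 6 lower in batch 2, where 29.7% of all genes tested passed, 14.7% higher and 15% lower. Beside *Sem1* and *Adrm1*, given above, *Pomp* (0.34, SE 0.13, adjusted p = 0.0299), the maturation factor of the core, was higher and *Vcp* (-1.09, SE 0.18, adjusted p = 1.43e-07) lower. The antigen-processing genes that work with the immunoproteasome were low or absent. *Tap2* was listed at 0 in all 11 embryos, *Tap1* was at most 2.80 TPM, and *Irf1* and *Nlrc5* were at most 2.12 and 1.69. *B2m*, the light chain of MHC class I, was present at 49.5 to 147 TPM and was higher in batch 2 by 0.81 (SE 0.23, adjusted p = 0.00344).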

How the data were processed

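RNA from 11 single embryos had been amplified from poly(A) tails (Smart-seq2), tagged with Nextera XT and sequenced from one end for 75 bases, without strand information. The authors mapped reads with STAR 2.6.0c to GRCm38.p6 and used RSEM with GENCODE vM18 to estimate, per gene and embryo, the deposited expected count and the deposited TPM (each gene's share of transcripts on a fixed total, corrected for effective length). The same tables give the effective length and the posterior SD of each estimate. A deposited table of the authors' own fold changes and p-values was not used.

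Expected counts were rounded and tested with DESeq2 1.42.0 (R 4.3.3; Wald test, batch and group as terms), with Benjamini-Hochberg adjustment over genes with a mean normalised count above 10. edgeR 4.0.16 (quasi-likelihood test) and limma 3.58.1, on log2(TPM + 1), were alternatives, as were TMM factors, an effective-length offset, other filters, single batches, no batch term and leaving out each embryo. An adjusted p under 0.05 was called. TPM of *Prdm10* and single members was compared by exact permutation (SciPy 1.17.1) over 462 assignments, without regard to batch. Counts of members without overlap refer to genes passing the filter. The scripts were tested on simulated data. Every pair of embryos differed by more than counting error, so each of the 11 was used. Embryos were grouped by their labels and numbered by position in the series, which pairs nothing. P-values measure the spread between embryos. Totals of 3534735 to 8265840 counts leave low genes imprecise.

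The members, pathway and marker lists were chosen with earlier results of these data known. Values per embryo are given for called members, the members at PRDM10 sites, restricted forms and their paralogs, caps and inhibitor, the 3 largest changes each way and the smallest interaction and batch p. Other values shown, and the motif letters other than those of the PRDM10 probe, were chosen after values were seen. Gene positions are from GENCODE vM21 and promoter windows from RefSeq, both on GRCm38. The promoter of *Psmc3* is not shown.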

Additional observations from a re-analysis of the deposited data

Results flagged for a closer look

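Among 42 groups of values tested for an embryo far from the others, 3 stood out. The limits used flag about 1 in 20 groups by chance where values are normally distributed. All 3 flags fell on genes at or near 0 in the other embryos of the group, where that rate does not hold. *Psmb11* was at 0.53 TPM in mutant replicate 5 (batch 1) and at 0 to 0.04 TPM in the 4 other mutants. *Psmb8* was at 2.00 TPM in control replicate 2 (batch 2), against 0 to 0.11 TPM in the 5 other controls. *Psmb9* was at 0.49 TPM in mutant replicate 2 (batch 2) and at 0 TPM in the 4 other mutants. All 3 values rest on few counts, and none of these genes passed the filter on the mean normalised count.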

How the results depend on the processing

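The count of 0 proteasome genes changed in mutants was obtained under every alternative listed, including edgeR, TMM factors, an effective-length offset, limma, either batch alone, no batch term and each embryo left out. The count differing between batches was 15 in DESeq2, 8 with limma on log2(TPM + 1), and 11 to 17 with an embryo left out. The cause of the difference with limma was not tested. The log2 ratio of *Prdm10* TPM was -1.30 and ranged from -1.40 to -1.15 with an embryo left out, while the DESeq2 log2 fold change on counts was -0.66 and did not pass. No value changed direction among the calls. Of 225 recomputed batch differences of single genes, 36 in 8 genes no longer passed, under limma, an omitted embryo or, for *Psmc1*, edgeR. No paired analysis was possible because replicate numbers follow the order of deposit and name no shared litter or embryo. *Psma8*, *Psmb8*, *Psmb9*, *Psmb11* and *Psme2b* had mean normalised counts of at most 10 and were left out of the counts of calls by that filter.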
